A study of Mus musculus with 4 samples.

Results

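The genes described here are the transcription factors and keratins that mark the trophectoderm of the mouse embryo: Cdx2, Gata3, Gata2, Tfap2c, Tead4, Eomes, Krt8, Krt18 and Krt19. They were taken by symbol, and all 9 were found among the 20171 genes of the table. Full-length cDNA of single cells, each tagged by a cell barcode and by a unique molecular identifier (UMI) per molecule, was read on the PacBio platform by HIT-scISOseq. Of the 161 cells, 5 were cultured mouse embryonic stem cells (mESC) and 13 came from blastocysts. The others were 10 oocytes, 9 zygotes and blastomeres of 6 kinds, 10 of the early 2-cell (E2C) and 11 of the late 2-cell stage (L2C), 17 from 4-cell, 26 from 8-cell, 38 from 16-cell and 22 from 32-cell embryos. Embryos came from C57BL/6J females of 6 to 8 weeks mated with DBA/2NCrl males (the sample labels give the strain as DBA/2J x C57BL/6J) and mESC were of the E14 Tg2A line. No group carried a transgene or was treated beyond the hormones used for superovulation. Cells were collected after the injection of human chorionic gonadotropin, at 20 h for unmated oocytes, 22 to 24 h for zygotes, 30 to 32 h for E2C, 46 to 48 h for L2C, 54 to 56 h for 4-cell, 68 to 70 h for 8-cell, 78 to 80 h for 16-cell and 32-cell, and 88 to 90 h for blastocyst cells.

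The trophectoderm is the outer epithelium of the blastocyst and the source of the placenta, while the inner cell mass gives the embryo proper. In outer cells of the morula the Hippo pathway is inactive, YAP and TAZ enter the nucleus and act with TEAD4, and TEAD4 and Notch signalling drive Cdx2, with GATA3 acting in parallel. TFAP2C works upstream of polarity and of several trophectoderm genes, and the simple epithelial keratins, of which KRT8 pairs with KRT18 or KRT19 to form filaments, are among the earliest structural proteins of the layer.

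Cells that their names assign to 1 embryo were averaged, which gave 43 replicates. These were each oocyte (10) and each zygote (9), and 24 embryos, of which 5 were E2C, 6 were L2C, 5 were 4-cell, 4 were 8-cell and 4 were 16-cell. The 40 cells of the 32-cell, blastocyst and mESC groups name no embryo and were described without a test. In the study's cell list the barcodes of each of these 3 groups carry a single suffix, different for each group, and cells of earlier stages carry the same suffixes. If the suffix marks the sequencing run, run and stage cannot be told apart among these 3 groups. A cell held 4985 to 389775 UMIs (median 38914), and at the median depth 1 UMI was worth 2.57 copies per 100,000 UMIs, the unit of every level below. The median depth was 246466 UMIs in zygotes and 32466 in 4-cell blastomeres, so shares of cells with a UMI were also computed after each cell was thinned to 5000 UMIs. Intervals are exact 95% intervals. Where no cell of a group held a UMI of a gene, the limit given is instead 3 counts of the number of cells, which concerns cells with a UMI and not cells that express the gene. Both cover counting error only, and cells of 1 embryo are not independent. Fewer cells of a type and less RNA per cell cannot be told apart in a mean over the cells of an embryo. Of the 9 genes, 7 passed the filter of at least 1 copy in at least 4 embryos. Gata2 and Krt19 did not. Cdx2 passed through the 16-cell embryos alone, the group in which it was high, so it had to differ there, and its fitted fold changes are given as descriptions without a test. Eomes reached 1 copy only in L2C embryo 1 (5.56), 8-cell embryo 4 (1.74) and 16-cell embryos 1 and 3 (2.53 and 3.05), the fewest the filter allows. It thus passed only with the 16-cell embryos, and its fold changes to that stage are likewise given without a test.

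**Figure D1:**
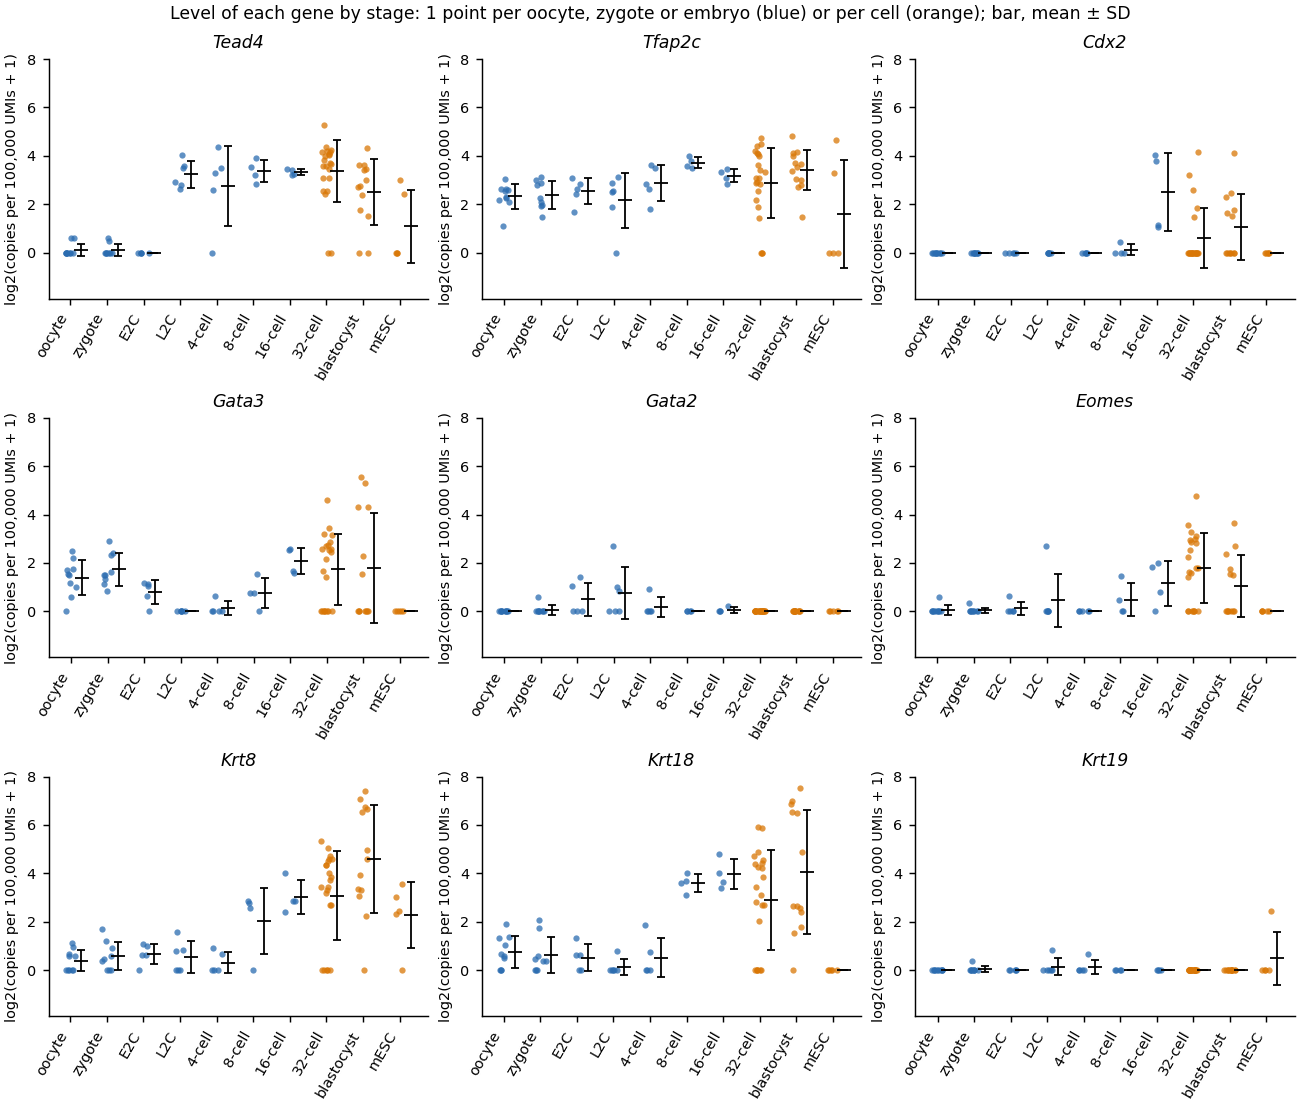
Levels of the 9 genes by stage, as log2(copies per 100,000 UMIs + 1); blue points are oocytes, zygotes or embryos, orange points are single cells, and the bar gives the mean ± SD of the points. Tead4 stood near 0 until E2C and above 5 copies in each of the 6 L2C embryos, Krt18 was above 7 copies in each of the 4 8-cell embryos and Krt8 above 4 in 3 of them. Cdx2 was above 1 copy in each of the 4 16-cell embryos and at 0 in 17 of 22 32-cell blastomeres, and Gata2 and Krt19 had means under 2 copies at every stage.

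Tead4, the DNA-binding partner of YAP and TAZ, lies at chr6:128224288-128300823 on the minus strand (GRCm38, the build called mm10). It was the earliest of the 9 genes to rise from near 0. Tead4 was at 0 in all 5 E2C embryos, and in the 6 L2C embryos its level was 5.13 at the lowest, 8.35 at the median and 15.6 at the highest. No L2C embryo overlapped with the E2C embryos. The log2 fold change from E2C to L2C was 3.17 with a standard error (SE) of 0.35 (adjusted p = 1.6e-11 by limma), and the summed UMIs, 0 against 52, put the level at least 24.5-fold higher when E2C is set to a floor of 3 counts over the stage. This step covers the main wave of embryonic genome activation, and Tead4 was 1 of 7 tested members called there, while 48.4% of all 11682 genes were called and 25.6% were called higher. To be called, a gene had to change by more than 1 on the log2 scale in either direction with a raw p under 0.01.

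After L2C, Tead4 showed no further change that passed the test. Its level in the 5 4-cell embryos was 8.74, 0, 19.5, 10.2 and 5.03, in the 4 8-cell embryos 8.30, 10.5, 6.20 and 13.8, and in the 4 16-cell embryos 9.90, 8.47, 8.16 and 9.82. The 4-cell embryo at 0 was represented by 2 cells, of 4985 and 20426 UMIs. Single cells of the 32-cell group ranged from 0 to 37.8 (median 12.0), blastocyst cells from 0 to 19.1 (median 5.66) and mESC from 0 to 7.01 (median 0). Tead4 was detected in 34 of 38 16-cell, 20 of 22 32-cell and 11 of 13 blastocyst cells, against 2 of 5 mESC, which were shallower (median 22726 UMIs).

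The transcripts of Tead4 differed in both their start and a coding exon. Its 12 listed isoforms held 183 UMIs, of the 437 UMIs counted for the gene. Among them were 2 isoforms whose first exon starts 5752 to 6020 bases upstream of the first annotated start in an exon at chr6:128306366-128306575 or chr6:128306366-128306843 that belongs to no annotated Tead4 transcript of GENCODE M21. These upstream starts made up 9 of 14 Tead4 isoform UMIs in L2C (64.3%, interval 35.1 to 87.2%), 6 of 14 in 4-cell, 8 of 40 in 8-cell and 10 of 51 in 16-cell blastomeres (19.6%, interval 9.82 to 33.1%). None of 44 UMIs in 32-cell blastomeres (interval up to 8.04%) and none of 16 in blastocyst cells began there. In a separate set of 16 libraries from intact or divided oocytes, both Tead4 UMIs, 2 of 2, began upstream, each in a library of a divided oocyte. Of the Tead4 isoform UMIs in the oocytes and zygotes of the main set, 0 of 1 and 0 of 2 began there. Reads that began in the first annotated exon were 0 of 14 in L2C, 4 of 14 in 4-cell, 23 of 40 in 8-cell, 24 of 51 in 16-cell, 19 of 44 in 32-cell and 13 of 16 in blastocyst cells, so the lowest share was in L2C and the highest in the blastocyst. Single embryos decided some of these shares. Of the 9 upstream L2C UMIs, 8 came from embryo 6, without which the share was 16.7%, and 21 of the 23 8-cell UMIs in the first annotated exon came from embryo 4, without which the upstream share in 8-cell blastomeres was 50%. Without 16-cell embryo 4, which gave 5 upstream UMIs of its 7, the 16-cell share was 11.4%, and with single 4-cell embryos left out the 4-cell share was 27.3 to 54.5%. These classes were formed after the values had been seen and carry no test.

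A cassette exon of 129 bases, 43 codons, was present in some Tead4 transcripts and skipped in others, so both keep the reading frame. It lies at chr6:128247960-128248088 on the minus strand (GRCm38) and is shown here, from the annotated transcript, because its presence separates the transcripts described next.
Tead4 cassette exon: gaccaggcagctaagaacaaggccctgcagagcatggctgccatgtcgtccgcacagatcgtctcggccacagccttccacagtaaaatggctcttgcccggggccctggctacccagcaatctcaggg
It was included in 5 and skipped in 5 of the L2C isoform UMIs that reached it, in 8 and 3 in 4-cell, 15 and 16 in 8-cell, 14 and 22 in 16-cell, 18 and 8 in 32-cell and 7 and 6 in blastocyst cells. The isoform PB.64305.62 begins at the first base of the exon itself and was counted as included, with 7 of the 18 such UMIs in 32-cell blastomeres. A read that begins there cannot show skipping, so the included counts lean upwards. Both forms were seen at each stage from L2C to blastocyst, and in mESC the 1 UMI that reached the exon included it.

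Tfap2c, which encodes AP-2γ, an activator of trophectoderm and polarity genes, was present at every stage. It lies at chr2:172549593-172558622 on the plus strand. Its level was 4.29 ± 1.59 in oocytes (SD, n = 10), 4.63 ± 2.15 in zygotes (n = 9), 5.07 ± 1.96 in E2C (n = 5), 4.43 ± 2.76 in L2C (n = 6), 7.07 ± 3.65 in 4-cell (n = 5), 12.2 ± 2.10 in 8-cell (n = 4) and 8.17 ± 1.70 in 16-cell embryos (n = 4). The 8-cell embryos lay highest, at 10.2 to 14.9, and overlapped with 4-cell embryos, which reached 11.2. No step of Tfap2c passed the limits. The largest adjacent difference was a log2 fold change of 0.77 from L2C to 4-cell (SE 0.45, adjusted p = 0.42 by limma). Every one of the 13 blastocyst cells held it (1.78 to 27.4, median 10.5), as did 2 of 5 mESC.

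The 12 listed isoforms of Tfap2c ended at 2 groups of sites. They held 236 UMIs, of the 653 UMIs counted for the gene, so the ends of most Tfap2c UMIs are not known. In oocytes, zygotes and L2C they held 24 of 87, 20 of 114 and 16 of 32 UMIs. Proximal ends, at 172557623 to 172557670, leave a 3′ UTR of 247 to 294 bases, and the distal end at 172558619 leaves 1243 bases. The 30 bases before the end at 172557623 (chr2:172557593-172557622, plus strand, GRCm38) are shown because they hold the poly(A) signal variant ATTAAA, in capitals, at their start.
Tfap2c proximal end: ATTAAAcatgtgtgttttttgttttttttt
The 20 bases after the proximal ends hold 4 to 6 A, and priming inside the transcript was not tested. The proximal share of Tfap2c isoform UMIs was 7 of 24 in oocytes, 7 of 20 in zygotes and 2 of 12 in E2C (16.7%, interval 2.09 to 48.4%), and 15 of 16 in L2C (93.8%, interval 69.8 to 99.8%). Both proximal E2C UMIs came from embryo 1, and with single embryos left out the share was 0 to 28.6% in E2C and 23.5 to 50% in zygotes. In the 5 L2C embryos with such UMIs the proximal ends were 1 of 1, 2 of 3, 6 of 6, 4 of 4 and 2 of 2. The share was 16 of 30 in 4-cell, 22 of 47 in 8-cell, 14 of 28 in 16-cell, 22 of 28 in 32-cell (78.6%), 15 of 24 in blastocyst cells and 1 of 7 in mESC. In the separate set of 16 oocyte libraries, deposited as counts, it was 3 of 333 UMIs (0.901%), against 29.2% in the oocytes above, so the share also differed between sets of oocytes. These classes were likewise formed after the values were seen, and no test was made of them. At the level of isoforms, 10 of the 39 isoforms of the 9 genes (of 68012 in all) were tested, and 1 was called from L2C to 4-cell, where 4.29% of isoforms were called. It was the distal Tfap2c isoform PB.45598.18, at 0 in the 6 L2C embryos and at 1.24 ± 2.10 in the 5 4-cell embryos (log2 fold change 1.20, SE 0.41, adjusted p = 0.12 by limma). It was not called without array weights (log2 fold change 0.76) or without 4-cell embryo 4 or 5 (0.46 and 0.96).

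**Figure D2:**
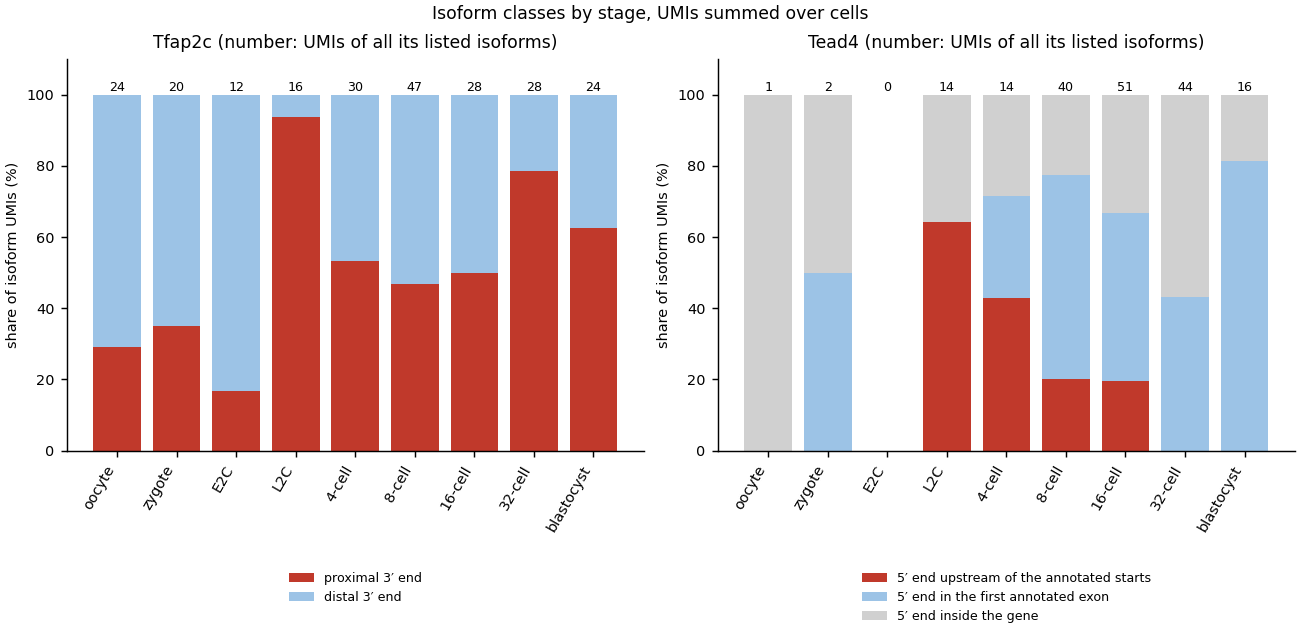
Shares of isoform UMIs by stage for the 3′ ends of Tfap2c (left) and the 5′ ends of Tead4 (right), UMIs summed over the cells of a stage; the number on each bar is the UMIs it rests on. Proximal ends of Tfap2c were 15 of 16 in L2C, and starts of Tead4 upstream of the annotation were 9 of 14 in L2C, 10 of 51 in 16-cell and 0 of 44 in 32-cell blastomeres. The separate oocyte libraries are not drawn.

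Cdx2, the caudal homeobox factor that keeps the trophectoderm distinct from the inner cell mass, lies at chr5:147300805-147307270 on the minus strand. It was the last of the factors to appear. No Cdx2 UMI was found in the 57 cells from oocyte to 4-cell, at a median of 67963 UMIs a cell, which allows a share of up to 5.26% of cells with a UMI. In 8-cell embryos its level was 0.371, 0, 0 and 0, from 1 UMI, and in 16-cell embryos 1.20, 1.11, 12.6 and 15.6. All 16-cell embryos lay above all 8-cell embryos, and they fell apart into a low and a high pair. The fitted log2 fold change was 1.75 (SE 0.29), and the summed UMIs, 1 against 31, gave a ratio of 20.5 (interval 3.42 to 837). Besides Cdx2, for which no test is read, Gata3 was the 1 member past the limits from 8-cell to 16-cell, where 3.36% of genes were called and 1.9% were called higher.

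The 16-cell embryos with high Cdx2, embryos 3 and 4, were also the shallow ones. Their cells had median depths of 12236 and 14987 UMIs, against 38012 and 38735 in embryos 1 and 2, and Cdx2 was found in 4 of 7 and 2 of 5 of their cells against 5 of 11 and 4 of 15. In embryo 4 the mean rested mainly on 1 cell at 65.0 copies, with the median cell at 0. In embryo 3 the cells ranged from 0 to 41.4 (median 8.07). By summed UMIs the levels were 1.16, 1.02, 15.1 and 9.73 in embryos 1 to 4. The part of depth in this difference was not tested. With the 3 shallow embryos of both stages left out, the fitted log2 fold change was 0.93. It was detected in 15 of 38 16-cell blastomeres (39.5%, interval 24.0 to 56.6%), 5 of 22 32-cell blastomeres, 6 of 13 blastocyst cells (0 to 16.5 copies, median 0) and none of 5 mESC. Its only listed isoform has the 3 exons of the annotated transcript and held 24 of the 53 Cdx2 UMIs.

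Gata3, a zinc-finger factor that acts beside Cdx2 downstream of TEAD4, lies at chr2:9857078-9890034 on the minus strand. Its transcript was found up to the early 2-cell stage and from the 8-cell stage on, with 1 UMI in all between. The level was 1.94 ± 1.39 in oocytes (SD, n = 10) and 2.69 ± 1.88 in zygotes (n = 9), where the lowest was 0.770 and the highest 6.51. In the 5 E2C embryos it was 1.20, 1.24, 1.09, 0.551 and 0, below the median zygote in each (1.83). The log2 fold change of -0.98 from zygote to E2C (SE 0.33, adjusted p = 0.033 by limma) stayed just inside the limit of 1, and it passed the limit with edgeR and when E2C embryo 1, 2 or 3 was left out. None of the 7 tested members was called by limma there, where 7.27% of genes were, and Gata3 was the 1 member with a raw p under 0.05. All 6 L2C embryos were at 0, from 599502 UMIs, against 66 Gata3 UMIs in 2435838 UMIs of the zygotes, at least 5.41-fold lower with L2C set to the floor of 3 counts over the stage. Among 4-cell embryos it was 0.570 in embryo 4, from 1 UMI, and 0 in the other 4.

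From the 8-cell stage Gata3 was found again. Its level was 0.689, 1.94, 0 and 0.670 in 8-cell embryos and 4.77, 5.04, 1.97 and 2.17 in 16-cell embryos, which all lay above the 8-cell embryos, the lowest of them by little. The log2 fold change was 1.39 (SE 0.45), past the limits at an unadjusted p of 0.0031 and not after adjustment (adjusted p = 0.13 by limma). Without 16-cell embryo 1 or 2 it missed the limits (log2 fold changes 1.01 and 1.14), as it did with DESeq2, TMM scaling or no filter on low genes. In single cells Gata3 ranged from 0 to 23.1 in 32-cell blastomeres (median 4.01) and from 0 to 45.7 in blastocyst cells (median 0), and it was in 18 of 38, 14 of 22 and 6 of 13 cells of the 16-cell, 32-cell and blastocyst groups and in none of 5 mESC. Thinned to 5000 UMIs, the shares with Gata3 were 16.8%, 22.7% and 26.2%, and the 90% and 100% of oocytes and zygotes became 8% and 11.1%. No isoform of Gata3 was listed.

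Gata2, the related factor of the trophoblast at chr6:88193891-88207032 on the plus strand, gave 11 UMIs in all 161 cells, 10 of them before the 8-cell stage. Neither the 22 32-cell blastomeres nor the 13 blastocyst cells held any, which allows shares of up to 13.6% and 23.1% of cells with a UMI. Gata2 was not detectable there at this depth.

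Eomes, a T-box factor of trophoblast stem cells that also has roles in mesoderm, lies at chr9:118478212-118486132 on the plus strand. It gave 1 UMI at each of the oocyte, zygote, E2C and L2C stages and none in 4-cell embryos. The levels were 0.371, 0, 0 and 1.74 in 8-cell embryos and 2.53, 0.753, 3.05 and 0 in 16-cell embryos, with overlap. The fitted log2 fold change from 8-cell to 16-cell was 0.82 (SE 0.28), under the limit of 1, and is given without a test. It was detected in 12 of 38 16-cell and 15 of 22 32-cell blastomeres (68.2%, interval 45.1 to 86.1%) and in 6 of 13 blastocyst cells, where the levels were 0 to 26.3 (median 2.46) and 0 to 11.4 (median 0) in the latter groups. Thinning left 4.21%, 20.9% and 3.08% of cells with Eomes, in the same order.

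**Figure D3:**
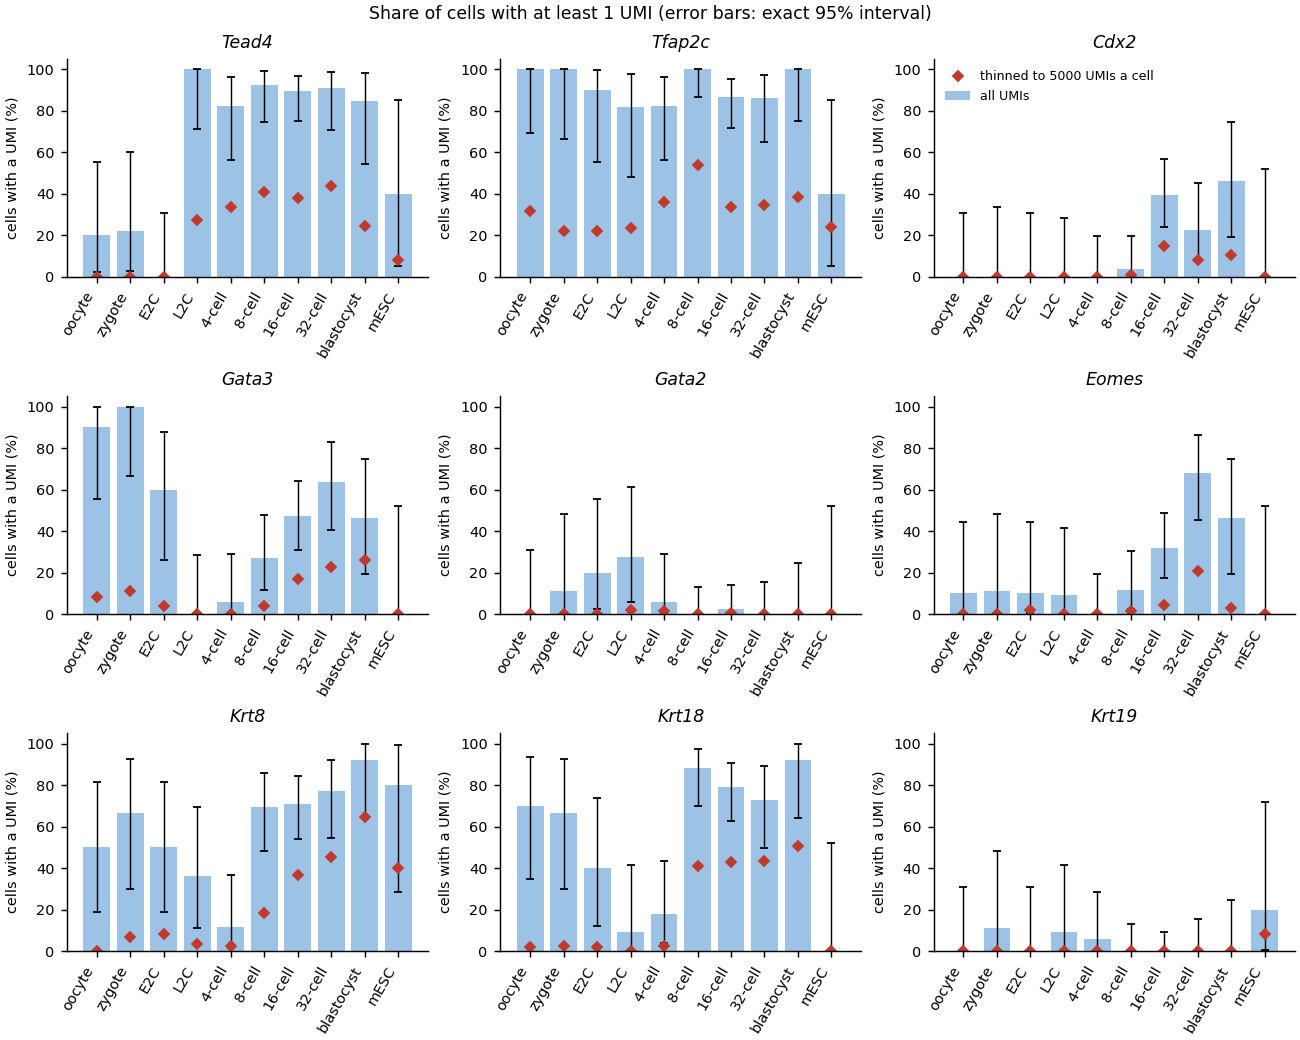
Share of cells with at least 1 UMI of each gene by stage (bars, with exact 95% intervals) and the same share after each cell was thinned to 5000 UMIs (diamonds). Thinning removes most of the detection of Gata3, Krt8 and Krt18 in the deep oocytes and zygotes and keeps the higher shares from the 8-cell or 16-cell stage on, and Cdx2 is at 0 up to the 4-cell stage by either count.

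The type II keratin Krt8 and its type I partner Krt18 rose together between the 4-cell and 8-cell stages. They are neighbours on chromosome 15, at chr15:101996698-102004482 on the minus strand and chr15:102028180-102032027 on the plus strand, with 23698 bases between them. Krt8 was 0.858, 0, 0, 0 and 0.598 in 4-cell embryos and 4.85, 5.79, 0 and 6.15 in 8-cell embryos. The 8-cell embryo at 0, embryo 3, had 3 cells at a median of 11844 UMIs, and the other 8-cell embryos lay above every 4-cell embryo. The log2 fold change was 2.07 (SE 0.44, adjusted p = 0.00046 by limma), with 2 UMIs against 41. Krt18 was 2.62, 0, 0, 0.662 and 0 in 4-cell embryos and 11.1, 7.56, 11.9 and 15.2 in 8-cell embryos. All 8-cell embryos lay above all 4-cell embryos for Krt18, with a log2 fold change of 3.05 (SE 0.50, adjusted p = 7.0e-06 by limma) and 4 UMIs against 87, a ratio of 14.5 (interval 5.48 to 54.5). Both keratins were called there, 2 of 7 tested members, where 15% of genes were called and 4.47% were called higher.

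From 8-cell to 16-cell neither keratin changed past the limits. Krt8 was 6.30, 15.2, 4.22 and 6.21 and Krt18 27.0, 11.6, 9.65 and 15.2 in the 16-cell embryos, overlapping with the 8-cell embryos, with log2 fold changes of 0.58 (SE 0.41) and 0.68 (SE 0.47). The highest single cells were blastocyst cells, with Krt8 at 0 to 170 (median 23.1) and Krt18 at 0 to 181 (median 5.34). In 32-cell blastomeres Krt8 was 0 to 39.4 (median 11.1) and Krt18 0 to 58.7 (median 8.64), so the Krt18 median was higher there. The 7 of 13 blastocyst cells without Gata3 lay within both 32-cell ranges (Krt8 0 to 23.1, Krt18 0 to 5.34). The oocyte marker list, 7 genes, moved with these groups too, at a summed level of 7.71 to 72.9 in 32-cell and 257 to 675 in blastocyst cells, with 6 of 7 detected and Zp2 at 0 in both, and its part in the keratin difference was not tested.

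The mESC separated the pair. Krt8 was found in 4 of 5 mESC (0 to 10.9, median 4.40) and Krt18 in none, at least 15.2-fold lower than in blastocyst cells with mESC set to the floor of 3 counts over the group. This bound uses the summed UMIs of all blastocyst cells. Most of these came from the 6 cells with Gata3 (Krt18 at 28.3 to 181 copies), while the other 7 held 0 to 5.34. A processed copy of Krt8 on chromosome 7 and an antisense transcript over the Krt8 start could take or add reads. This was not tested, and it makes low Krt8 values less certain. In oocytes and zygotes both keratins were detected at low levels, Krt8 0.373 ± 0.439 and 0.627 ± 0.756 and Krt18 0.843 ± 0.899 and 0.775 ± 1.15 (SD, n = 10 and 9). Cumulus and granulosa markers, 5 of 8 of which are in the table, summed to 4.42 to 10.7 in oocytes, 3.61 to 8.89 in zygotes and 0 in every L2C blastomere, with the genes Amh, Foxl2 and Ptx3 not in the table, and their part in the early keratin and Gata3 values was not tested. Krt19, the other type I partner at chr11:100140810-100148665 on the minus strand, gave 4 UMIs in all, 1 each in zygotes, L2C, 4-cell and mESC, and none in the 99 cells from 8-cell to blastocyst.

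**Figure D4:**
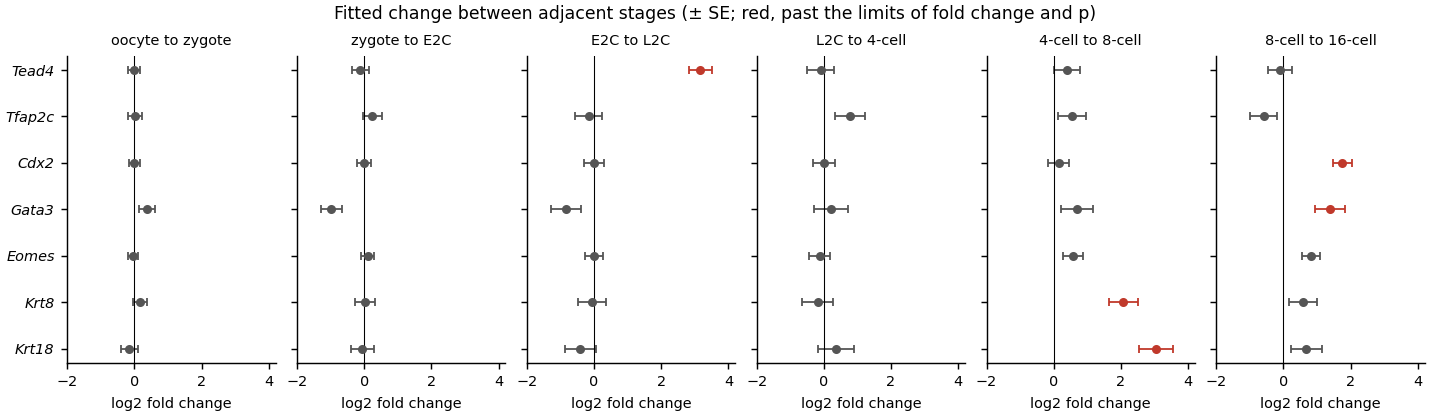
Fitted log2 fold change (± SE, limma) of the 7 tested genes at each adjacent step, later stage minus earlier, with called changes in red. Tead4 stands alone at E2C to L2C (3.17), the keratins at 4-cell to 8-cell (2.07 and 3.05), and Cdx2 and Gata3 at 8-cell to 16-cell (1.75 and 1.39), of which Cdx2 entered the fit through the 16-cell embryos alone and carries no test.

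Most reads of the keratins were of the annotated structure. The full-length isoform of Krt8 has 9 exons and that of Krt18 has 7, and their 5′ ends lie 156 and 135 bases upstream of the RefSeq starts. The bases just before these 5′ ends are shown because the genes rose together, Krt8 with the GATA motif AGATAA in capitals and Krt18 without a match to any motif searched (RefSeq, GRCm38.p6, chr15:102004499-102004592 minus strand and chr15:102027966-102028080 plus strand).
Krt8 upstream: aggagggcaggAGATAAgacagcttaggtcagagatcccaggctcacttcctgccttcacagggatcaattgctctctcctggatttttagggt
Krt18 upstream: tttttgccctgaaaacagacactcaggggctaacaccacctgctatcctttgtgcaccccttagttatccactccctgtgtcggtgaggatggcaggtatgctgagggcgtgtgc
The 4 motifs were searched on both strands of the RefSeq promoter windows, from 250 bases before to 50 after the start. The TEAD letters GGAATG were in 14.7% of all 32851 promoters and the letters of GATA factors, AGATAA, in 11.2%. The TFAP2 letters GCCNNNGGC were in 16.6% and the CDX letters CATAAA in 11.9%, and none of the 4 motifs contains another. Of the 9 genes, 6 matched a promoter entry. Krt8 held the GATA letters at -239 to -234 from its RefSeq start, Krt18 the TFAP2 letters at -83 to -75, Cdx2 the TFAP2 letters at -16 to -8, Gata3 the TFAP2 letters at 3 places, and Gata2 the TEAD and TFAP2 letters, while the Eomes window held none. The Krt18 match lies inside its full-length isoform, which begins 135 bases before the RefSeq start. The listed Cdx2 isoform begins at chr5:147307469, before the annotated start of the gene at 147307270. A match is a description of letters, not of a bound site.

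The share of full-length reads behaved differently for each keratin. For Krt8 it was 18 of 31 isoform UMIs in 8-cell (58.1%), 42 of 75 in 16-cell (56.0%), 49 of 80 in 32-cell (61.3%) and 127 of 219 in blastocyst cells (58.0%). The 8-cell value rested on embryo 4, with 12 of 12 full-length UMIs against 4 of 10 and 2 of 9 in embryos 1 and 2, and without embryo 4 it was 31.6%. For Krt18 it was 72 of 81 in 8-cell (88.9%, interval 80.0 to 94.8%), 127 of 185 in 16-cell (68.6%, interval 61.4 to 75.3%), 73 of 109 in 32-cell (67.0%) and 142 of 235 in blastocyst cells (60.4%, interval 53.9 to 66.7%). These are pooled UMIs, and single embryos overlapped, from 21 of 28 to 14 of 14 in 8-cell and from 28 of 53 to 9 of 9 in 16-cell embryos. The remaining reads started inside the gene. The study proposes that incomplete reverse transcription might account for some transcripts that lack the start codon, and its part in these shares was not tested. At the isoform level, 2 isoforms were called from 4-cell to 8-cell, where 7.93% of isoforms were called. These were the full-length Krt18 isoform PB.28534.1 (0.826 ± 1.46 in 5 4-cell embryos, 11.8 ± 2.87 in 4 8-cell embryos, log2 fold change 3.02, adjusted p = 2.8e-05 by limma) and the full-length Krt8 isoform PB.28530.2 (0.138 ± 0.309 against 2.06 ± 2.07, log2 fold change 1.31, adjusted p = 0.020 by limma), and without 8-cell embryo 4 the latter did not pass the limits. From 8-cell to 16-cell 1 passed the limits, where 1.97% of isoforms were called. It was the Krt18 isoform PB.28534.34, which starts inside the gene and keeps an intron of 111 bases at chr15:102030784-102030894. It was at 0.121 ± 0.242 in 8-cell and 1.36 ± 0.95 in 16-cell embryos (log2 fold change 1.18, SE 0.19). Before the 32-cell stage it had 1 UMI in E2C, 1 in 8-cell and 15 in 16-cell blastomeres. It thus passed the filter mainly through the group in which it was high. The isoform is therefore described without a test. Without array weights its log2 fold change was 0.97, under the limit.

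Within single cells, some held both keratins and some only 1. Both Krt8 and Krt18 were detected in 16 of 26 8-cell, 25 of 38 16-cell, 13 of 22 32-cell and 11 of 13 blastocyst cells. Krt8 without Krt18 was found in 2, 2, 4 and 1 cells of these stages and Krt18 without Krt8 in 7, 5, 3 and 1. Across cells, Pearson's r of their log2 levels was 0.03 in the 26 8-cell blastomeres, 0.54 in the 38 16-cell blastomeres (0.68 after the embryo means were removed), 0.42 in the 32-cell blastomeres and 0.84 in the 13 blastocyst cells. Cells of a stage share embryos and may share a run, and r with log10 depth was 0.27 for Krt8 and 0.30 for Krt18 in 16-cell blastomeres and -0.33 and -0.32 in blastocyst cells. At least 1 of the keratins was found in 25 of 26, 32 of 38, 20 of 22 and 13 of 13 cells of these stages, and no cell of the 4 stages held Gata3 without a keratin. All of Cdx2, Gata3, Krt8 and Krt18 were found in 0 of 26 8-cell, 9 of 38 16-cell, 5 of 22 32-cell and 5 of 13 blastocyst cells.

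Blastocyst cells with Gata3 were the cells with high keratin. The 6 cells with Gata3 held Krt8 at 30.2 to 170 copies and Krt18 at 28.3 to 181, and 5 of them held Cdx2. The 7 cells without it held Krt8 at 0 to 23.1 and Krt18 at 0 to 5.34, and 1 of them held Cdx2. These ranges of Krt8 and of Krt18 did not overlap. Median depths were 48890 and 47437 UMIs. Sox2, an inner cell mass factor, was in 5 of the 7 cells without Gata3 and in none of the 6 with it. Other inner cell mass markers did not divide in this way, with Nanog in 5 of the 6 and in all 7, and Pou5f1 in 5 of the 6 and in all 7. The cells were sorted here by a measured gene, so the counts are a description without a test.

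The same comparison at earlier stages showed overlap. Among 22 32-cell blastomeres, all 14 with Gata3 held Krt8 (5.45 to 39.4 copies, median 14.4), against 3 of the 8 without it (0 to 25.2, median 0), but the cells with Gata3 were deeper (median 42679 UMIs against 22962). All 5 32-cell blastomeres with Cdx2 held Gata3. Among 38 16-cell blastomeres, Krt8 was in 17 of 18 with Gata3 (median 10.8) and in 10 of 20 without it (median 0.949), at median depths of 38135 and 29682 UMIs. The 4 16-cell blastomeres with Sox2 held no Krt8, but 3 of them held Krt18, 3 held Eomes and 1 held Gata3. Cdx2 and Sox2 were found together in none of the cells of the 16-cell, 32-cell or blastocyst groups. Sox2 was in 7 of 22 32-cell blastomeres, 4 of which held Krt8. Eomes, held by 12 of the 38 16-cell blastomeres, did not follow the keratins there (r of -0.15 with Krt8 and 0.10 with Krt18), while Gata3 did (0.51 and 0.48). In 32-cell blastomeres these r were 0.21 and -0.03 for Eomes and 0.61 and 0.41 for Gata3. Among the 13 blastocyst cells they were 0.54 and 0.48 for Eomes and 0.85 and 0.92 for Gata3. The inner cell mass marker Nanog also had positive r in 16-cell blastomeres, 0.27 with Krt8, 0.41 with Krt18 and 0.45 with Gata3. In the same order, its r were 0.08, -0.11 and -0.13 in 32-cell blastomeres and -0.22, -0.07 and -0.15 in blastocyst cells.

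**Figure D5:**
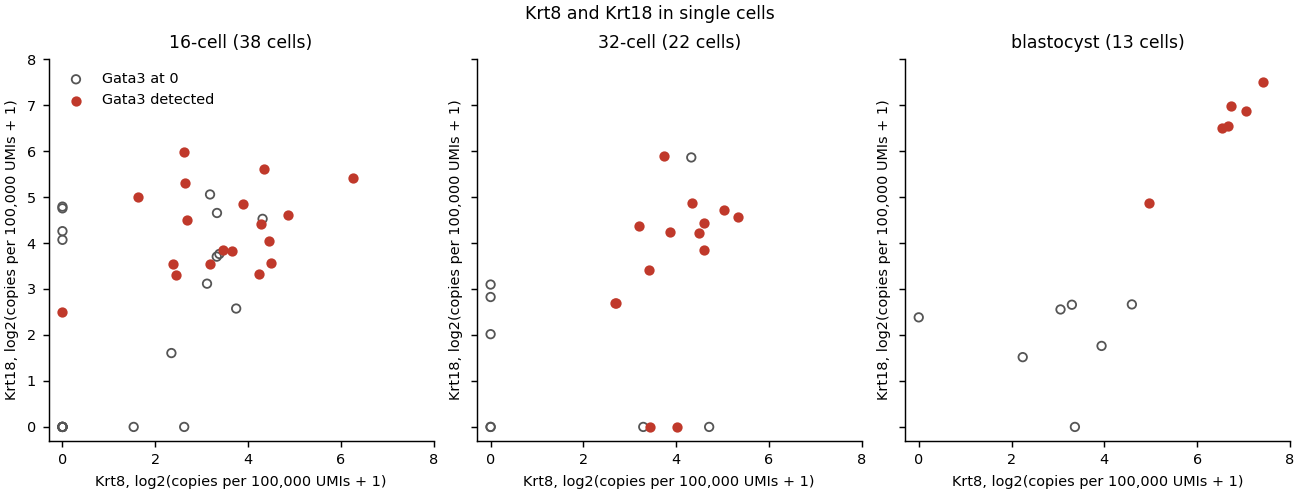
Krt8 against Krt18 in single cells of the 16-cell, 32-cell and blastocyst groups, both as log2(copies per 100,000 UMIs + 1), with cells in which Gata3 was detected in red. The 6 blastocyst cells with Gata3 stand apart at high levels of both keratins, while at the earlier stages the cells with and without Gata3 overlap.

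Over wider steps more of the genes passed the limits. From oocyte to 16-cell, where 50.8% of genes were called and 26.8% were called higher, the tested members past the limits were Tead4 (log2 fold change 3.23), Krt18 (3.47) and Krt8 (2.57), all higher. From 4-cell to 16-cell, where 17.7% were called and 6.45% were called higher, they were Krt18 (3.73), Krt8 (2.65) and Gata3 (2.09), all higher. Without a test, the fitted value of Cdx2 was 1.90 at both steps, and that of Eomes was 1.33 and 1.40. Both steps use the 16-cell embryos. The Eomes values rested on 16-cell embryo 1, without which its log2 fold changes were 0.86 and 0.93, under the limit. From oocyte to zygote, where 3.24% of genes were called, and from L2C to 4-cell, where 6.69% were, 0 of 7 were called by limma, edgeR or DESeq2, and 0 had a raw p under 0.05 by limma (the lowest were 0.11 and 0.092).

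The genes with the most similar course over the 10 stage means, among 4276 genes with a stage mean of at least 10 copies, were found for 6 of the genes. For Krt18 they were Stard10, Perp and Fbp2 (Pearson's r 0.97, 0.97 and 0.96 over stages, and 0.84, 0.88 and 0.83 over the 43 oocytes, zygotes and embryos). For Krt8 they were Ahcy, Hexa and S100a11 (0.97, 0.96 and 0.95, and 0.69, 0.74 and 0.63). For Tead4 they were Nudt4, Larp1 and Ddx21 (each 0.99 over stages, and 0.89, 0.89 and 0.77). For Gata3 they were Snx2, Tdrp and Ak4 (0.92, 0.91 and 0.90, and 0.59, 0.54 and 0.62). For Cdx2 they were Lrp2, Elf3 and Akr1b8 (0.86, 0.84 and 0.84, and 0.62, 0.62 and 0.65). For Tfap2c they were Reep1, Glmp and Rpl3 (each 0.94 over stages, and 0.43, 0.66 and 0.51). Stage means share libraries and depth, so these values describe likeness only.

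Other regulators of the trophectoderm moved in both directions. Of a list of 26, 16 were tested. From E2C to L2C, where 25.6% of all genes were called higher, 4 of 16 rose, a share no higher than that of all genes, among them Wwtr1, which encodes TAZ (0 to 9.29, log2 fold change 2.86), and 2 fell, among them Yap1 (45.7 to 20.8, log2 fold change -1.31). From 8-cell to 16-cell, where 1.9% of genes were called higher, 2 of 16 rose, the epithelial factor Elf3 (8.56 to 27.5, log2 fold change 2.53) and the helix-loop-helix inhibitor Id2 (0.759 to 5.80, log2 fold change 2.32), and Sox15 passed the limits downwards at an unadjusted p only (14.5 to 5.73, log2 fold change -1.43, adjusted p = 0.056 by limma). From 4-cell to 16-cell, where 6.45% of genes were called higher, 3 of 16 rose (Id2, Elf3 and Klf5) and 2 fell (Sox15 and Smarca4), with a list median log2 fold change of 0.34 against -0.09 for all genes.

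Of a list of 30 genes of the outer epithelium, 25 were tested. From 4-cell to 8-cell, where 4.47% of all genes were called higher and 15% in either direction, 6 of 25 rose and 1 fell. Those that rose include Aqp3, a water and glycerol channel (0.488 to 14.6, log2 fold change 3.24), Perp, a desmosome protein (0 to 6.93, log2 fold change 2.93), and the cadherin Cdh1 (1.84 to 7.72, log2 fold change 1.92), and Atp1b1, a sodium pump subunit, fell (6.55 to 0.878, log2 fold change -1.54). From 8-cell to 16-cell, against 1.9% of all genes called higher, 5 of 25 rose and none fell, among them the endocytic receptor Lrp2 (0.260 to 8.60, log2 fold change 3.09), its adaptor Dab2 (4.53 to 19.6, log2 fold change 2.39) and Ptges, a prostaglandin synthase (1.03 to 13.8, log2 fold change 2.95). From 4-cell to 16-cell, against 6.45% of all genes, 12 of 25 rose and none fell, and the list median log2 fold change was 1.05, against -0.09 for all genes tested.

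The other keratins did not follow Krt8 and Krt18. Of 26 further Krt symbols, 9 were tested, and none rose from 4-cell to 8-cell or from 8-cell to 16-cell. Krt28, at 0 in E2C, 1.64 in L2C and 4.10 in 4-cell embryos, fell to 0.0912 in 8-cell embryos (log2 fold change -2.26, adjusted p = 1.9e-07 by limma). From oocyte to 16-cell, where 24% of all genes were called lower, 4 of 9 fell, Krt12 (6.45 to 0.0749), Krt84 (3.93 to 0.360), Krt10 (6.58 to 1.29) and Krt88 (1.20 to 0). Among markers of the other lineages, 12 inner cell mass genes were tested. From 4-cell to 8-cell, where 4.47% of all genes were called higher, 4 of the 12 rose (Utf1, Klf4, Tdgf1 and Pou5f1) and Fgf4 fell. From 4-cell to 16-cell, where 6.45% were called higher, 5 of the 12 rose and 1 fell. At the step from 8-cell to 16-cell 2 of the 12 passed the limits upwards, where 1.9% of all genes did. They were Nanog (0.516 to 3.25, log2 fold change 1.60) and, at an unadjusted p only, Zfp42 (8.06 to 16.1, log2 fold change 1.16, adjusted p = 0.16 by limma), and Tdgf1 fell (16.5 to 6.94, log2 fold change -1.34). Of 3 tested primitive endoderm genes, Gata6 rose (2.25 to 17.8, log2 fold change 3.44) and Gata4 fell (6.76 to 0.943, log2 fold change -2.52) from 4-cell to 8-cell, the step at which the keratins rose.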

How the data were processed

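Circular consensus reads were made and assigned to cells and UMIs, mapped to mm10, and given to genes and isoforms by the authors, who kept an isoform only where at least 5 cells held it. The deposited gene and isoform tables hold CPM divided by 10, so that 1 copy is 1 UMI in every 100,000 of that cell. The separate oocyte libraries were deposited by the authors as UMI counts of 49271 isoforms. UMIs were recovered as whole multiples of the value of 1 UMI (100% of non-zero values within a tolerance of 0.1). Reads were oriented, so antisense genes were counted apart where mapping allowed.

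Values were averaged over the cells of each oocyte, zygote or embryo and compared in 1 fit with limma 3.58.1 (R 4.3.3, trend and array weights) on log2(value + 1), which understates changes of low genes. P-values were adjusted by the Benjamini-Hochberg method across all 11682 genes or 29409 isoforms tested. Embryo numbers could repeat between runs, and p-values measure the spread between these embryos. Alternatives used edgeR 4.0.16 and DESeq2 1.42.0 on recovered UMIs, other filters, pseudocounts, scalings and single embryos left out. Thinning to 5000 UMIs was drawn 5 times, and 1 4-cell blastomere was too shallow for it. Other values were computed in Python 3.11.15 (numpy 2.4.6, pandas 2.3.3, scipy 1.17.1) and drawn with matplotlib 3.10.9. The fit was tested on simulated data.

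All 9 genes are named. The genes of similar course are the 3 with the highest r for each of 6 genes, and from the lists, called genes are named with values. The members and lists were chosen with earlier results of these data known.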

Additional observations from a re-analysis of the deposited data

Results flagged for a closer look

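Of 55 groups of 4 to 10 samples, 16 held 1 sample far from the others by Dixon's test at its 95% value. The chance rate of that value, about 1 of 20 groups, does not hold for counts this sparse, where 1 UMI among zeros always passes. In 13 of the 16 groups every other sample was at 0 and the value rests on 1 UMI. These were Cdx2 in 8-cell embryo 1 (0.371 copies per 100,000 UMIs), Gata3 in 4-cell embryo 4 (0.570), Gata2 in zygote 4 (0.515), 4-cell embryo 1 (0.923) and 16-cell embryo 2 (0.165), and Eomes in oocyte 4 (0.516), zygote 7 (0.257), E2C embryo 1 (0.547) and L2C embryo 1 (5.56). They were also Krt18 in L2C embryo 2 (0.740) and Krt19 in zygote 5 (0.302), L2C embryo 3 (0.790) and 4-cell embryo 4 (0.570). Gata2 in L2C embryo 1 was also 5.56, from 1 UMI of the only cell of that embryo, with the next embryo at 0.985. Krt18 in 4-cell embryo 1 was 2.62, with the next at 0.662. In the separate oocyte libraries, Krt8 isoforms gave 8 UMIs in 1 of 6 libraries made from oocytes divided into 4 (4.18 copies) and none elsewhere in the set.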

How the results depend on the processing

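The calls of Tead4, Krt8 and Krt18 held under every alternative run, and no result turned its direction. The numbers of members below count Cdx2 and Eomes, though no test is read from Cdx2, nor from Eomes for a change to 16-cell. Of 7 tested members, the number past the limits from zygote to E2C became 1 (Gata3) with a pseudocount of 0.5, edgeR, summed UMIs or TMM scaling, and from E2C to L2C 2 with edgeR. From 8-cell to 16-cell it became 1 with no filter, TMM scaling or the shallow embryos left out (an alternative added after seeing the data), and 0 with a filter of 5 copies or DESeq2. From oocyte to 16-cell it became 3 with the filter of 5 copies or DESeq2, and from 4-cell to 16-cell 2 and 3. For isoforms (PB.28534.34 counted, though no test is read from it), it became 1 from E2C to L2C with a pseudocount of 0.5. From L2C to 4-cell it became 2 with that pseudocount and 0 with no filter or no array weights. From 8-cell to 16-cell it became 2 with no filter. With single embryos left out, members called ranged from 0 to 1 at zygote to E2C, 1 to 1 at E2C to L2C, 0 to 0 at L2C to 4-cell, 2 to 2 at 4-cell to 8-cell, 0 to 3 at 8-cell to 16-cell, 3 to 5 at 4-cell to 16-cell and 3 to 6 at oocyte to 16-cell. Isoforms called ranged from 0 to 1 at L2C to 4-cell, 1 to 2 at 4-cell to 8-cell, 0 to 2 at 8-cell to 16-cell and 0 to 0 at zygote to E2C and E2C to L2C. Full-length shares, in an alternative added after seeing the data, ranged from 31.6 to 72.7% (8-cell) and 52.9 to 71.0% (16-cell) for Krt8 and from 84.8 to 96.2% and 63.5 to 75% for Krt18. Where Cdx2 failed the filter without a 16-cell embryo, it was kept in an added run, and its log2 fold change from 8-cell was then 1.27 to 2.94. Members found in at least 50% of cells were 4, 6 and 4 in 16-cell, 32-cell and blastocyst cells, and 0, 0 and 2 once thinned. Cells with both Krt8 and Krt18 were 7.4, 5.4 and 6.2 once thinned, and the full-length share of Krt18 in blastocyst cells was 53.6% as a mean over cells. TMM scaling moved the median log2 fold change of all genes from 0.03 to -0.11 at E2C to L2C, from 0.11 to 0 at zygote to E2C and from -0.16 to 0 at 4-cell to 8-cell. The cause of these changes was not tested. No paired analysis was possible because embryo numbers only name embryos within a stage. Depth limits detection of the low genes, and the 32-cell, blastocyst and mESC groups allow no test.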
